A study of Mus musculus with 18 samples.

Results

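The genes studied here are 10 CC chemokine ligands of mouse chromosome 11, which lie in a pair of clusters 1.41 Mb apart. Members were chosen by name. The Ccl2 cluster holds Ccl2, Ccl7, Ccl11, Ccl12 and Ccl8, and the Ccl3-Ccl4-Ccl5 cluster holds Ccl5, Ccl9, Ccl6, Ccl3 and Ccl4. They are 10 of the 21938 protein-coding genes of GENCODE release M21 on mm10. Each cluster was taken as the gene bodies of its members plus 50 kb to each side of their most upstream start sites. This gave 111 of 82391 reference peaks, 127 of 84660 summits and 52 of 59617 extended regions.

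Open chromatin had been mapped by ATAC-seq, in which the Tn5 transposase inserts adapters into accessible DNA, in wild type macrophages grown from mouse bone marrow (BMDMs). Per the study's methods the marrow came from male C57/BL6 mice aged 6 to 8 weeks. All cells received DMSO for 1 h, and were then left untreated or given LPS or IL4 at 10 ng/mL for 30 min, 1 h, 2 h or 4 h, which makes 9 groups of 2 libraries. The 3 deposited lists pool all 18 libraries into 1 catalog with 0 columns per library, so that stimuli, time points and replicates were not compared, depth is unknown, and no value below has a replicate error or a test. A start site peak is accessibility in at least some of these libraries, not expression. The macrophage label was checked at marker genes. All 9 macrophage markers (Adgre1, Csf1r, Cd68, Itgam, Fcgr1, Spi1, Mertk, Lyz2 and Mrc1) had a start site peak, that is a reference peak at most 1000 bp away, against 56.5% of all protein-coding genes and 9 of 26 markers of other cell types. The latter were 2 of 3 endothelial markers (Cdh5 with a score of 1721 and Pecam1 with 1345), 2 of 3 dendritic cell, 2 of 4 B cell, 2 of 4 fibroblast and 1 of 4 neutrophil markers, with 0 of 4 T cell and 0 of 4 eosinophil and mast cell markers.

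CC chemokines are small secreted proteins that draw leukocytes along a gradient by binding G protein-coupled receptors. Macrophages are a main source of several of them, and LPS is a classical inducer of Ccl2, Ccl3, Ccl4 and Ccl5, through NF-kB and interferon-regulated factors among others. Ccl2, Ccl7 and Ccl12 attract monocytes through Ccr2, Ccl8 belongs to the same monocyte chemoattractant group, and Ccl11 (eotaxin) attracts eosinophils through Ccr3. Ccl3 and Ccl4 (the macrophage inflammatory proteins) and Ccl5 (RANTES) attract monocytes and T cells, while Ccl6 and Ccl9 are rodent ligands of Ccr1.

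The promoters below are shown because they carry the start site peaks of the members, or lack one. They are RefSeq sequences of assembly GRCm38.p6, 250 bases before to 50 after the annotated start, written in the direction of transcription, and 5 of the 10 members matched an entry. Capitals mark motif matches on either strand. The motifs searched were AP-1 (TGAGTCA), PU.1/ETS (GAGGAAGT), IRF (GAAANNGAA), C/EBP (TTGCNNAA), STAT (TTCNNNGAA), CRE (TGACGTCA), SP/KLF (GGGCGG), RUNX (TGTGGTTT) and the core of the TATA box (TATAAA), with NF-kB, STAT6 and CTCF searched by longer patterns. STAT, STAT6 and IRF patterns can share bases. Ccl12 and Ccl3 were named by the rule on the best start site peaks, and Ccl8, Ccl9 and Ccl6 were added after their values were seen.
Ccl12, chr11:82101595-82101894, plus strand: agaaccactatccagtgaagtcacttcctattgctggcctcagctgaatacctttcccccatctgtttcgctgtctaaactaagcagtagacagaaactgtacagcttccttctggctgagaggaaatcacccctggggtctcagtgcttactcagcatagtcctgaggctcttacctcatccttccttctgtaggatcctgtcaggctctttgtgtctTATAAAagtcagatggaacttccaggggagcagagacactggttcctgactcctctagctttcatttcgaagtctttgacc
Ccl8, chr11:82114935-82115234, plus strand: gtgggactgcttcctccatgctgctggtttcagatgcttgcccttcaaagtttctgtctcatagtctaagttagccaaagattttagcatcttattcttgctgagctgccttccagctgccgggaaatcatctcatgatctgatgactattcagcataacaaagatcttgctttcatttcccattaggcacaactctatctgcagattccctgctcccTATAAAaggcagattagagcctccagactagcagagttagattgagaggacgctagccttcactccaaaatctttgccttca
Ccl9, chr11:83578587-83578886, minus strand: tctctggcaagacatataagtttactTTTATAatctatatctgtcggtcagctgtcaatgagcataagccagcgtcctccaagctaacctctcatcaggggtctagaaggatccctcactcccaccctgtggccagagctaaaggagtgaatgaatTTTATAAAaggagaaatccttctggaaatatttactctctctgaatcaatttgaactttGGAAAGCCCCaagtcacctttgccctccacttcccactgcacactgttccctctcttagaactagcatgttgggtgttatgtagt
Ccl6, chr11:83593038-83593337, minus strand: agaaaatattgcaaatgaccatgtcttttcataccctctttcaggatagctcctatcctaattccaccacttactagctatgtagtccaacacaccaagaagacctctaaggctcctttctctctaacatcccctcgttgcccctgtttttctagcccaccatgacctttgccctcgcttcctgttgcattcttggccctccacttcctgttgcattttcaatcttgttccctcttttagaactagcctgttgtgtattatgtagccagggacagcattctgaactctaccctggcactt
Ccl3, chr11:83649329-83649628, minus strand: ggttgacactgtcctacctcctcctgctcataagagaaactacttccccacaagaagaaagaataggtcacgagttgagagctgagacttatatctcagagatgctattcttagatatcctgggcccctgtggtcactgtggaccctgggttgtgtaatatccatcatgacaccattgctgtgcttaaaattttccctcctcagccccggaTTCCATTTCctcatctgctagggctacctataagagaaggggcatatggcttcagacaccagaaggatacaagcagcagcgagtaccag

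Counting the start base as 0, the Ccl12 promoter held TATAAA at bases -31 to -26 and the Ccl8 promoter at -32 to -27, both on the sense strand. Of all 32851 promoters of the table, 2.63% held TATAAA on the sense strand in the 50 bases before the start, and 13.6% held it anywhere on either strand. These promoters resembled each other in register: their best local alignment ran from base -147 in both and had 126 identical positions in 200 columns. The Ccl12 window lay 64.3% inside reference peaks and the Ccl8 window 0%. The Ccl9 promoter held an NF-kB match on the opposite strand at -35 to -26, a motif found in 4.51% of promoters. It also held TATAAA at -92 to -87 on the sense strand, and at -224 to -219 and -94 to -89 on the opposite strand. The Ccl3 promoter held an IRF match on the opposite strand at -39 to -31, against 8.56% of promoters, and lay 100% inside reference peaks. The start in this RefSeq entry lies slightly upstream of the GENCODE start used for Ccl3 elsewhere, so these positions are counted from a different base. The Ccl6 promoter held 0 of the motifs. It aligned with that of Ccl9 over 74 columns with 59 identical positions, bases -59 to 14 of Ccl6 facing -18 to 48 of Ccl9. Among the 10 pairs of these promoters, the Ccl12-Ccl8 and Ccl9-Ccl6 alignments both scored 37, and the other 8 scored 10 to 13. The 5 promoters held 2 or 3 CG dinucleotides each, against a median of 7 over the table.

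The summit windows below are shown because they hold the 3 best scored summits of each cluster that lie over 1000 bp from any start site. They run 100 bases to each side of the summit on the plus strand, with motif matches in capitals. They were chosen after their values were seen.
Ccl2 -30578 bp, chr11:82004893-82005093: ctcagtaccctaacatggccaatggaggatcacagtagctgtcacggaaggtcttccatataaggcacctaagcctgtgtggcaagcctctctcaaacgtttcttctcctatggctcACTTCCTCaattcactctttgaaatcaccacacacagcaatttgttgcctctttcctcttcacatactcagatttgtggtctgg
Ccl2 -28363 bp, chr11:82007108-82007308: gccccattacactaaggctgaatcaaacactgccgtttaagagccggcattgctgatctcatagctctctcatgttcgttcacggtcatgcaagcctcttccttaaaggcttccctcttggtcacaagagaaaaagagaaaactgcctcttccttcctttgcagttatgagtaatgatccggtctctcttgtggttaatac
Ccl2 -28603 bp, chr11:82006868-82007068: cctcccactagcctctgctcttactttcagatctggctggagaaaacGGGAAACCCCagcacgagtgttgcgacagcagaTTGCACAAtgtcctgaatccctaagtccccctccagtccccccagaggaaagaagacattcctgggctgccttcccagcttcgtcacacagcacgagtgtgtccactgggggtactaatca
Ccl5 -10652 bp, chr11:83541070-83541270: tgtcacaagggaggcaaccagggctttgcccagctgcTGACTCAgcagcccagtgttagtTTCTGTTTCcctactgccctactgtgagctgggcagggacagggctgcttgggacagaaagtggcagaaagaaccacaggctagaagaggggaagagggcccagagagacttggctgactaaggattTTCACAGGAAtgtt
Ccl9 6201 bp, chr11:83572335-83572535: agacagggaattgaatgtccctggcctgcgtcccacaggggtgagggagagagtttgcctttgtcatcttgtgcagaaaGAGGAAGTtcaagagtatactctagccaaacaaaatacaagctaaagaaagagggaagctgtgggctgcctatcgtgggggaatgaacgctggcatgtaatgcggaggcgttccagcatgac
Ccl3 8963 bp, chr11:83640292-83640492: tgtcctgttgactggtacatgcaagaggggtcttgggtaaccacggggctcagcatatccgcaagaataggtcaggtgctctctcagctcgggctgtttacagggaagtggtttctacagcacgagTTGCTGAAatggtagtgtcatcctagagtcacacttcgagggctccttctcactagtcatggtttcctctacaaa

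The window at -30578 bp from Ccl2 scored 1734 and held a PU.1/ETS match 17 to 24 bases past the summit. The window at -28363 bp scored 1670 and held 0 of the motifs searched at summits. The window at -28603 bp scored 1568 and held an NF-kB match and a C/EBP match. The window at -10652 bp from Ccl5 scored 1696 and held AP-1, IRF and STAT6 matches. The window at 6201 bp past the Ccl9 start, beyond the end of the gene, also scored 1696 and held a PU.1/ETS match. The window at 8963 bp past the Ccl3 start scored 1683 and held a C/EBP match. A match says that the letters are present, not that a factor was bound.

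Reference peaks were dense in both clusters. The Ccl2 cluster (chr11:81985571-82165185) held 43 peaks in 179615 bp, or 23.9 per 100 kb, and the Ccl3-Ccl4-Ccl5 cluster (chr11:83480518-83712584) held 68 in 232067 bp, or 29.3 per 100 kb. The same windows around all protein-coding genes held 4.67 peaks per 100 kb. Those around 10 CXC ligand genes of chromosome 5, the family most like this one, held 15. The CXC windows include that of Cxcl13, whose nearest peak lies 203599 bp from its start, which lowers their density. The clusters' densities were thus 5.12 and 6.27 times that of all coding windows. The Ccl3-Ccl4-Ccl5 cluster had 1.22 times the peak density of the Ccl2 cluster, with a 95% interval of 0.823 to 1.84 that covers counting error only and includes equal density. The ratio was 1.46 for summits and 1.06 for extended regions.

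**Figure D1:**
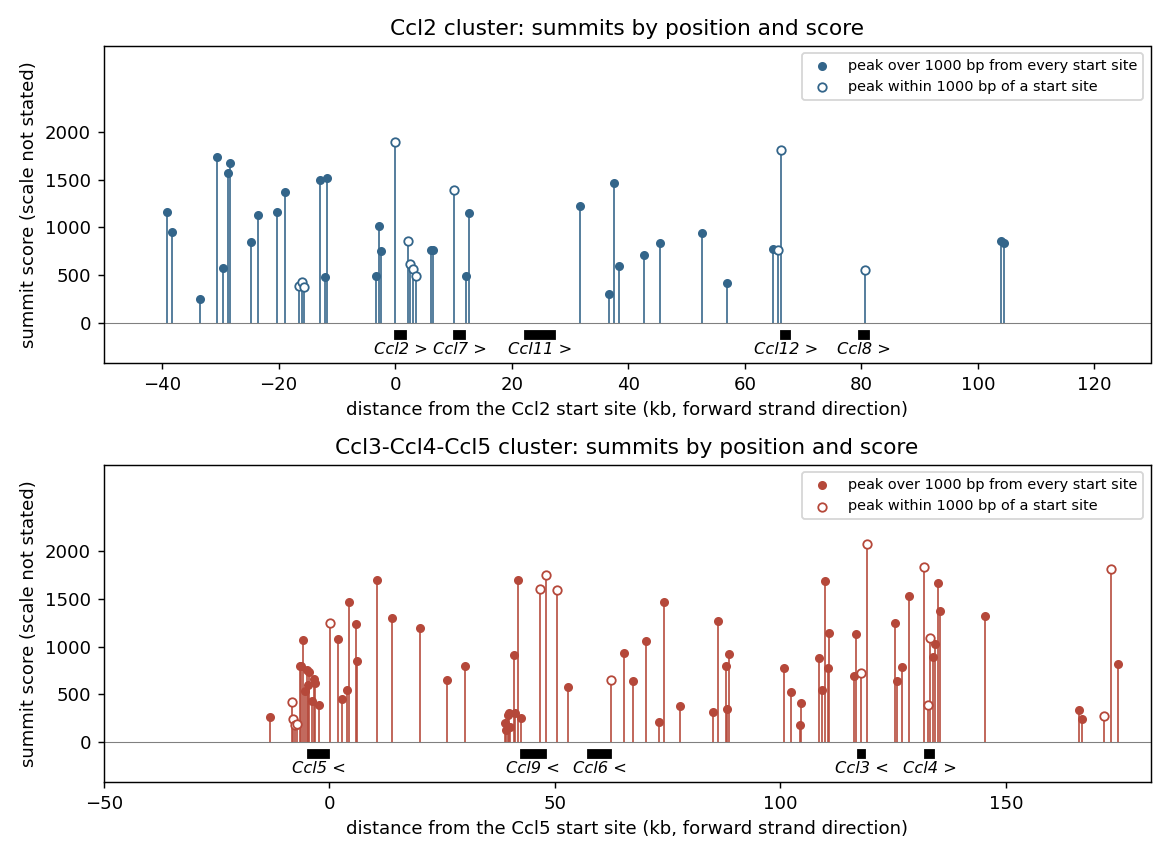
Each line is a summit, at its distance in kb from the start site of the first gene (x axis) and with its score as height (y axis), in the Ccl2 cluster (top) and the Ccl3-Ccl4-Ccl5 cluster (bottom). Open circles are summits of peaks within 1000 bp of a start site, black bars are the member genes, and > or < gives their strand. The highest summits reach 1890 at Ccl2 and 2074 at Ccl3. No summit lies within the bodies of Ccl2, Ccl7, Ccl11 and Ccl12, and of these only Ccl11 has no peak at its start either.

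The clusters differed more in the extent of their peaks than in their number. Peaks covered 6.06% of the Ccl2 cluster and 11.5% of the Ccl3-Ccl4-Ccl5 cluster, against 1.21% of all coding windows. The median peak was 216 bp wide in the former and 274 bp in the latter, against 227 bp in the catalog. Peaks over 500 bp were 3 of 43 (6.98%) in the Ccl2 cluster and 12 of 68 (17.6%) in the other, against 4.28% of all peaks. Peaks with several summits numbered 1 (2.33%) and 8 (11.8%), against 2.47% of all peaks. Summit scores, whose scale the sources used here do not give, had a median of 834 in the Ccl2 cluster and 780 in the Ccl3-Ccl4-Ccl5 cluster, against 737 over all summits. With the best summit of each extended region alone the order turned, at 1071 and 1136. The scores of both clusters overlapped widely, from 250 to 1890 and from 127 to 2074.

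Start site peaks were found at 9 of the 10 members, against 56.5% of all protein-coding genes. Members are described below by the best summit score at the start site and by the percent of coding start site peaks that scored as high.

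Among the monocyte chemoattractants, Ccl2 (chr11:82035571-82037453, plus strand) had a start site peak 547 bp wide whose summit lay at -39 bp and scored 1890, and 19.2% of coding start site peaks scored as high. Ccl7 (chr11:82045712-82047525, plus strand) had a narrower peak of 198 bp with its summit at -38 bp and a score of 1394, a middle rank (54.5% as high). Ccl12 (chr11:82101845-82103400, plus strand) scored 1812 at -121 bp (24.6% as high), in a peak that ended 58 bp before the start. Ccl8 (chr11:82115185-82116799, plus strand) had its nearest peak 903 bp into the gene, with a summit at 1091 bp that scored 554, so that 95.4% of coding start site peaks scored as high. It is counted among the 9 only at the 1000 bp limit, and 8 members remain at 500 bp.

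Ccl11 (chr11:82057823-82062955, plus strand), the eosinophil attractant, was the member with no start site peak. The nearest peak lay 9306 bp away, downstream of the gene, and a stretch of 18783 bp without any reference peak spanned the whole gene. Other peak-free stretches of the cluster ran for 23172 bp past Ccl8 and for 14300 bp over the whole of Ccl12 and into Ccl8. Within the gene, 0.811% of 76-base stretches, the length of a read, occur more than once in the genome as exact copies. Ccl11 still had 18 extended regions within 50 kb.

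Among the macrophage inflammatory proteins, Ccl3 (chr11:83647844-83649355, minus strand) had the best scored summit of either cluster, 2074 at -283 bp, and 8.41% of coding start site peaks scored as high. Ccl4 (chr11:83662584-83664683, plus strand) scored 1838 at -119 bp (22.7% as high), in a peak 188 bp wide that ended 50 bp before the start, and had 3 peaks within 1000 bp of it. Ccl5, the RANTES gene (chr11:83525778-83530518, minus strand), scored lower, 1248 at -160 bp (64.3% as high). The Ccr1 ligands stood apart from each other. Ccl9 (chr11:83572919-83578636, minus strand) scored 1747 at 114 bp (29.5% as high), while Ccl6 (chr11:83587882-83593087, minus strand) scored 654 at 22 bp (92.5% as high). In descending order the start site scores ran Ccl3, Ccl2, Ccl4, Ccl12, Ccl9, Ccl7, Ccl5, Ccl6 and Ccl8, and without library values it cannot be said which neighbours in that order differ.

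**Figure D2:**
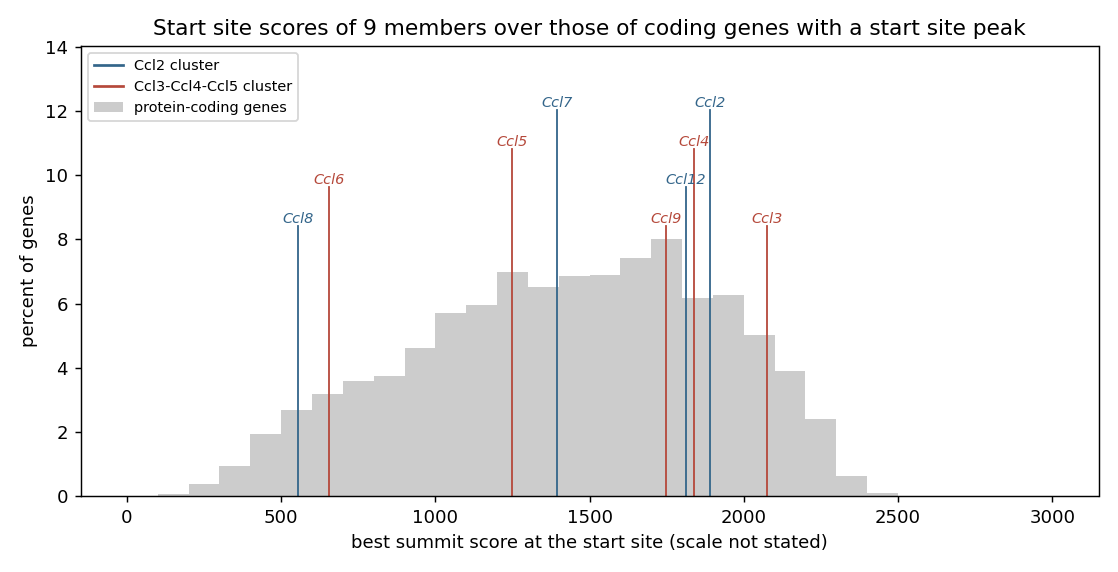
Grey bars give the percent of protein-coding genes with a start site peak (y axis) in each range of best summit score at the start site (x axis, scale not stated), and lines mark the members by cluster. Ccl8 (554) and Ccl6 (654) sit in the low tail, Ccl3 (2074) in the high one, and Ccl11 has no value.

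The surroundings of the members were counted in extended regions, which merge nearby peaks. The median coding gene had 4 within 50 kb of its start, and 13 was the 95th percentile. Macrophage markers had a median of 11, from 5 at Mertk to 17 at Csf1r, and receptors of the family a median of 8. Ccl6 had 20, Ccl7 and Ccl9 had 19 each, Ccl11 had 18, Ccl2 had 17 and Ccl3 had 14. Ccl4 had 12, Ccl5 had 11, and Ccl12 and Ccl8 had 9 each, a count that 20.9% of coding genes reached. Each member shares its window with 2 to 4 others, so these are not independent counts. Peaks were unevenly spread around Ccl12 and Ccl8, with 11 upstream and 3 downstream of each. Ccl7 had 27 upstream and 10 downstream, Ccl11 23 and 11, Ccl5 19 and 7, and Ccl4 22 and 11. Ccl9 and Ccl3 had more downstream, 19 against 14 and 20 against 14.

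**Figure D3:**
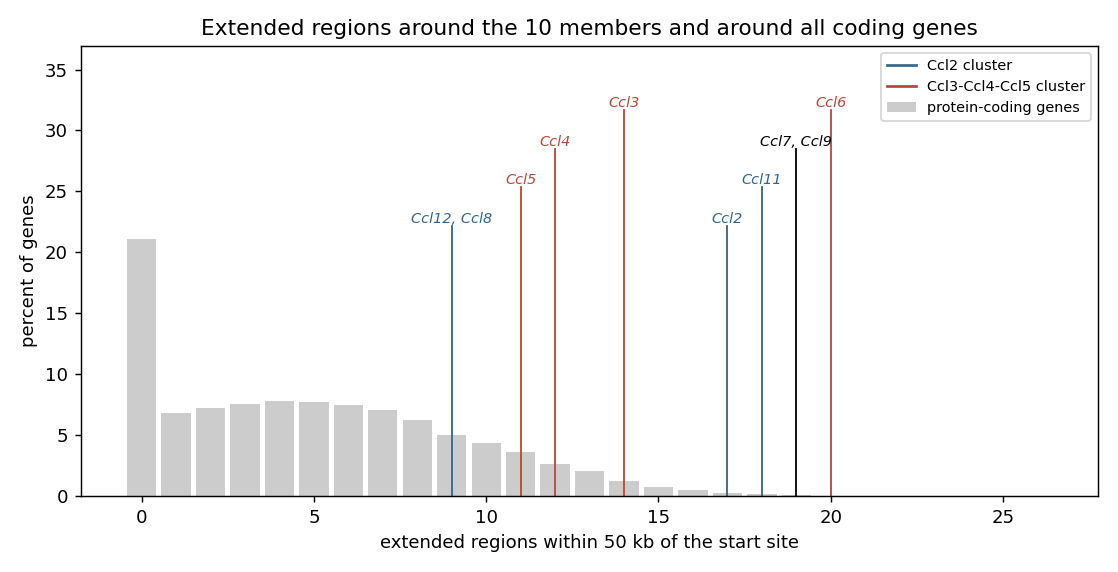
Grey bars give the percent of all protein-coding genes (y axis) with each number of extended regions within 50 kb of the start site (x axis), and lines mark the 10 members by cluster, black where both share a value. Members range from 9 (Ccl12 and Ccl8) to 20 (Ccl6), and the median coding gene has 4.

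Away from the start sites, the peaks of the Ccl2 cluster were strongest upstream of Ccl2. Its 5 best scored summits were those at the starts of Ccl2 (1890) and Ccl12 (1812), followed by 1734, 1670 and 1568 at -30578, -28363 and -28603 bp from Ccl2. These 3 lie in an intron of the long noncoding RNA Gm31522, and the latter pair share the widest peak of the cluster, 691 bp (chr11:82006789-82007479). The next widest, of 548 and 547 bp, lay just past the end of Ccl2 and over its start. Of 43 peaks, 24 had Ccl2 as the nearest member, against 3 for Ccl8. Peaks over 1000 bp from any start site had a median best score of 845, above the 588 of those nearer, whereas over the catalog the medians were 664 and 968. The peaks near start sites in this cluster include those of Gm31522, with best scores of 376, 384 and 430. They also include those of Gm17268, a gene antisense to Ccl2, with best scores of 486, 563, 613 and 856.

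In the Ccl3-Ccl4-Ccl5 cluster the best scored summits were at the starts of Ccl3 (2074) and Ccl4 (1838), at the start of Wfdc17 (1812), at Ccl9 (1747) and, tied at 1696, at -10652 bp from Ccl5 and 6201 bp past the Ccl9 start. Here peaks near start sites had the higher median, 1094 against 802. Other genes with a peak at a start site were Heatr9, E230016K23Rik, Gm23247 and Gm11429. In all, 5 of 12 neighbouring genes had one, against 2 of 2 in the Ccl2 cluster. No share over all genes of these mixed types was computed, and several of the 12 are pseudogenes. The peak counted for Gm23247 is that at the Heatr9 start, 978 bp away. Taf15 counts as without one because its start with a peak of 1747 lies outside the window. A stretch of 20403 bp past Ccl4, over pseudogenes, held no peak.

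The peaks of the Ccl3-Ccl4-Ccl5 cluster extended over the gene bodies. Reference peaks covered 55% of Ccl4, 48.9% of Ccl5 and 35.2% of Ccl3, against 13.1% of Ccl9 and 2.57% of Ccl6. In the Ccl2 cluster they covered 20.2% of Ccl8, 10.6% of Ccl2, 2.21% of Ccl7 and 0% of Ccl11 and Ccl12. Coverage counts listed peaks only, and some summits called between the start and the far side of Ccl2 and Ccl7 were not listed. What they would add to the coverage of these genes is unknown. The widest peak was 2645 bp long with 7 summits and lay over the end of Ccl5 (chr11:83524987-83527631), and 0.00243% of all reference peaks were as wide. Its best summit scored 759, near the catalog median, so that this peak was broad and not high. The next widest, of 1386 bp, covered the end of Ccl3 (chr11:83646630-83648015, best 1129), and one of 1306 bp lay beyond the end of Ccl5 (chr11:83523572-83524877, best 1071). Ccl4 had a peak of 1231 bp at its end that scored 1670.

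**Figure D4:**
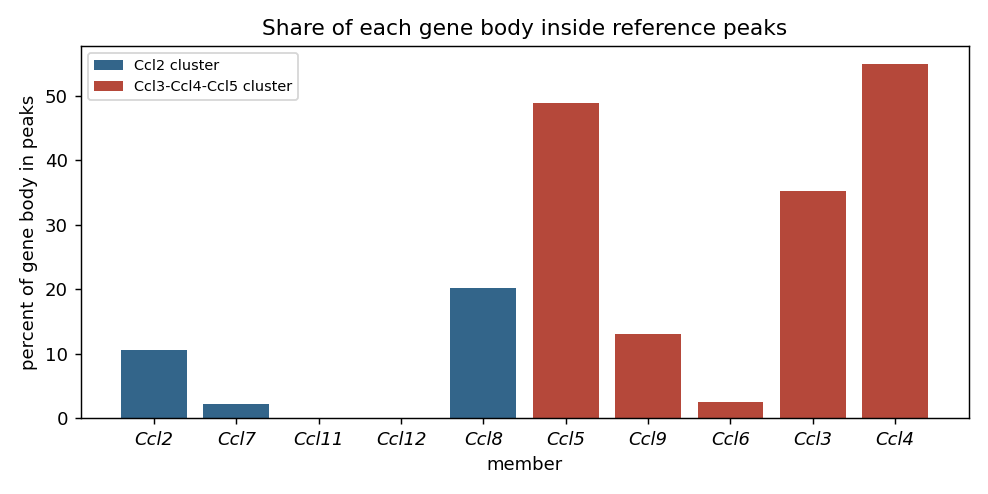
Bars give the percent of each member's gene body (y axis) that lies inside reference peaks, by member (x axis) and cluster. Ccl4 (55%), Ccl5 (48.9%) and Ccl3 (35.2%) exceed the other 7 members, which reach at most 20.2%.

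The ends of the genes were then counted, a comparison chosen after the data were seen. A reference peak lay within 1000 bp of the gene end in 7 of 10 members, all but Ccl11, Ccl12 and Ccl6, against 11.9% of all coding genes and 13.5% of those of the members' length range, 1512 to 5718 bp. In genes this short a peak at the start can also be near the end, and Ccl2's end peak lies near the start of Gm17268. Counting only peaks over 1000 bp from any start site left 5 of 10, namely Ccl7, Ccl5, Ccl9, Ccl3 and Ccl4. This stands against 7.93% of genes of that length and 14.1% of those that also have a start site peak. These shares do not allow for peak density, which was 23.9 and 29.3 per 100 kb in the clusters against 4.67 in all coding windows. Whether gene ends hold more peaks than other stretches of the clusters was not tested. The 5 end peaks ranged widely in score, from 250 at Ccl9 and 495 at Ccl7 to 1670 at Ccl4. Repeat bases made up 93.5% of the best summit window of the Ccl9 end peak and 88.6% of that of the Ccl4 end peak.

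The summit names number the calls of the merged libraries along the genome and letter the summits within a call, so that the last listed letter gives the least number of summits in it. The call over the end of Ccl5 had 14 listed summits over 5161 bp, lettered without a gap, and 0.0172% of listed calls had as many. The call at and past the end of Ccl9 had 9 of at least 10 listed over 3424 bp, and that over Ccl4 had 7 over 3423 bp, lettered without a gap. The call over Ccl3 had 4 of at least 5 listed. The call over Ccl2 ran for 3701 bp with at least 9 summits, of which 5 were listed. The 4 that were not listed fell between the summit at the Ccl2 start and those past its end. The call past the end of Ccl7 had 2 of at least 5 listed. The 3 that were not listed fell between the summit at the Ccl7 start and those past its end. Why summits were not kept was not tested.

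TATAAA was searched in promoters only. Matches of the other motifs within 100 bp of the summits were close to their shares over the whole catalog for most motifs. NF-kB matched 3 of 44 summits of the Ccl2 cluster (6.82%, 95% Wilson interval 2.35 to 18.2) and 6 of 83 of the Ccl3-Ccl4-Ccl5 cluster (7.23%, 3.36 to 14.9), against 5.55% of all summits. AP-1 matched 15.9% and 8.43%, against 15.9%. IRF matched 9.09% and 12%, against 8.12%, and C/EBP 15.9% and 14.5%, against 11.4%. PU.1/ETS matched 6.82% and 9.64% against 9.08%, STAT 6.82% and 8.43% against 6.35%, and STAT6 6.82% and 9.64% against 6.81%. All these catalog shares lay within both clusters' counting intervals. Among summits over 1000 bp from any start site, however, AP-1 matched 6 of 70 in the Ccl3-Ccl4-Ccl5 cluster (8.57%, 3.99 to 17.5). This lay below the 19.4% of all such summits, while 7 of 33 matched in the Ccl2 cluster (21.2%, 10.7 to 37.8). It was the only such interval, over all motifs and both clusters, to leave out the catalog share. Summits of the same peak are not independent, so the intervals are too narrow. With the best summit of each extended region, at any distance, that cluster's AP-1 share was 13.3%. The catalog share of SP/KLF lay outside both clusters' intervals, with 0 of 44 and 2 of 83 summits against 16.9% of all summits. That share was 43.3% among summits within 1000 bp of a start site and 5.93% among those farther away, while the clusters held 1 match in 24 summits near start sites and 1 in 103 farther away, where 5.93% lay within both clusters' intervals. The clusters' summits were also poorer in CG, with a mean of 1.5 and 1.65 CG dinucleotides per window against 5.51 over all summits. CRE matched none of 127 summits, against 0.938% of all.

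**Figure D5:**
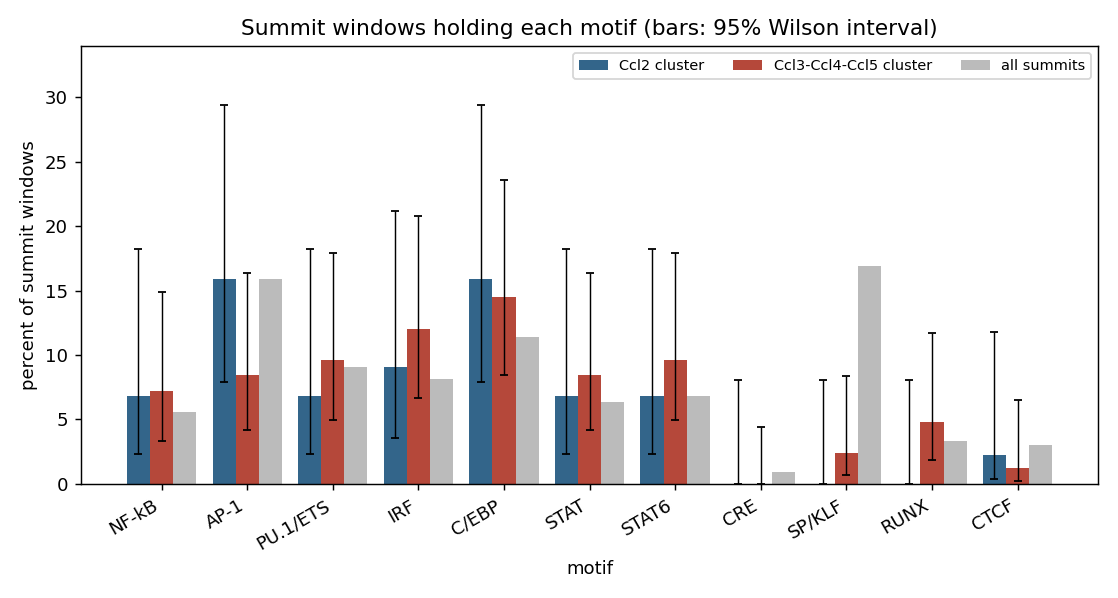
Bars give the percent of summit windows, 100 bp to each side, that hold each motif (y axis) in the Ccl2 cluster (44 summits), the Ccl3-Ccl4-Ccl5 cluster (83 summits) and all 84660 summits, and error bars are 95% Wilson intervals of the clusters. The SP/KLF share of all summits (16.9%) lies above both clusters' intervals.

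At the best scored start site summit of each member, Ccl5 held an NF-kB match, Ccl4 an IRF match, Ccl3 a STAT match and Ccl8 NF-kB and AP-1 matches, whereas Ccl2, Ccl7, Ccl12, Ccl9 and Ccl6 held none of the motifs searched at summits. At further start site peaks, the summit of Ccl9 that scored 1606 held IRF and C/EBP matches, that of Ccl3 that scored 727 held PU.1/ETS, SP/KLF and RUNX matches, and that of Ccl4 that scored 1094 held PU.1/ETS and C/EBP matches. The further start site summits of Ccl12 that scored 759 and of Ccl4 that scored 393 held no match. Matches were unevenly placed along the clusters, as seen on inspection and without a test. Upstream of Ccl5, 5 of the 10 summits nearest to it held an NF-kB match, at -160, -1852, -4390, -5872 and -20031 bp, with scores of 1082 to 1468. None of the 16 summits downstream of the Ccl5 start did. Of these 5 matches, 1 lay within 50 bp of the summit. Of the 12 summits nearest to Ccl6, 6 held a C/EBP match, 4 of them within 50 bp. CTCF matched 1 summit in each cluster (2.27% and 1.2%, against 3.03% of all summits), at -39215 bp from Ccl2, the outermost upstream summit of that cluster, and between Ccl5 and Ccl9, at 22118 bp past the Ccl9 start.

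The members are related genes, and reads from near-identical copies could be misplaced. Exact copies were counted. The 76-base stretch centred on the summit occurred once in the genome for all 44 and all 83 summits. Copies that differ by a base were not counted, so misplacement between near-identical copies was not tested. With 38 bases, 5 of the 83 summits of the Ccl3-Ccl4-Ccl5 cluster (6.02%) and 0 of the 44 of the other occurred again. The best summit of the peak at the Ccl4 end is among them, with 10 copies. In the windows as a whole, 5.14% and 1.39% of 76-base stretches were repeated.

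Outside the clusters, 4 of 11 other CC ligands had a start site peak, Ccl22 (856), Ccl24 (1543), Ccl25 (1708) and Ccl27a (1581), against 56.5% of coding genes. Of 13 receptors of the family, 5 had one, namely Ccr1 (1296), Ccr3 (634), Ccr9 (583), Ccr10 (367) and the atypical receptor Ccrl2 (1619). Ccr1 binds Ccl6 and Ccl9, and Ccr3 binds Ccl11. The nearest peak to the start of Ccr2, the receptor of Ccl2, Ccl7 and Ccl12, lay 1181 bp away, just past the limit used. Of the 10 CXC ligands of chromosome 5, 5 had a start site peak, the highest at Cxcl2 (1747).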

How the data were processed

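ATAC-seq libraries of 18 BMDM samples (9 groups of 2) were single-end sequenced at 76 bases. Per the study's methods, the authors used BBDuk, Trimmomatic 0.39, ShortStack alignment to mm10, SAMtools 1.9 and MACS2 2.2.6, with duplicates kept, no model or local background, and summits called. They kept peaks below a stringent q-value that overlapped between replicates. A shift of reads to the Tn5 cut site is not given in the sources used here, so summits may lie beside the most frequent cut, and kept duplicates may raise peak heights.

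The deposited files are 3 BED lists (reference peaks, summits, extended regions), pooled over libraries. The summit list has a score per summit, deposited by the authors with no stated scale, which was used only to rank and describe. The lists have 0 columns of single libraries and 0 columns of other samples, so depth per sample and its precision are unknown and no test between groups was made.

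Members and lists were chosen with earlier results of these data known. Start sites and genes came from GENCODE M21, sequences from GRCm38.p6, whose chromosome lengths held every entry. A start site or gene end peak lies within 1000 bp. Either strand was scanned for motifs, 100 bp to each side of a summit. The text names all 10 members, the 5 best summits and 3 widest peaks of each cluster, neighbouring and family genes with a start site peak, and exceptions where stated. A receptor and a macrophage marker of the lists are not reported here and were left out of the counts. Alternatives changed windows, limits, scores, units and motif windows, and left out each member in turn. The gene end count and the shares of merged calls were added after seeing the data. Intervals (Wilson, or exact for the density ratio) cover counting error only. Counting was tested on simulated data. Python 3.11.15, pandas 2.3.3, numpy 2.4.6, scipy 1.17.1 and matplotlib 3.10.9 were used.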

Additional observations from a re-analysis of the deposited data

How the results depend on the processing

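No paired analysis was possible because the lists hold no column per library, and no library could be left out. Of 132 recomputed values, 113 stayed within 1.5 times the reported count or within its interval or spread, and 19 moved. Keeping only peaks with a summit at or above the median score gave 27 and 39 peaks in the Ccl2 and Ccl3-Ccl4-Ccl5 clusters, and extended regions as the unit gave 22 and 30. With the best summit of each extended region the median scores were 1071 and 1136, so that the order of the clusters turned. The median number of extended regions around a member, 17 and 14, became 6 and 7 within 20 kb, 28 in the latter cluster within 100 kb, 34 and 33 with reference peaks and 34 and 37 with summits. With 50 bp to each side of the summit, the Ccl3-Ccl4-Ccl5 cluster had an NF-kB share of 1.2%, an AP-1 share of 3.61% and a STAT share of 3.61%, and the Ccl2 cluster a C/EBP share of 6.82%. With 200 bp, the former had a C/EBP share of 25.3% and a STAT6 share of 18.1%. A narrower or wider window holds fewer or more bases by construction. Leaving out each member in turn gave density ratios of 1.13 to 1.39, and no alternative put the Ccl3-Ccl4-Ccl5 cluster below the Ccl2 cluster in peak density.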

Other observations

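The call numbers in the summit names run to 217313 over the genome, of which 69718 (32.1%) have a summit in the list. Between the first and the last number of the Ccl2 cluster 29 of 57 numbers were listed (50.9%), and in the Ccl3-Ccl4-Ccl5 cluster 44 of 77 (57.1%). Lower case repeat bases made up 8.99% of the summit windows of the Ccl2 cluster and 20.1% of those of the Ccl3-Ccl4-Ccl5 cluster, against 13.3% over all summits. Windows made up of repeats for more than 50% of their bases numbered 2 of 44 (4.55%) and 12 of 83 (14.5%), against 6.15% of all summits.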
